A study of Homo sapiens with 28 samples.

Results

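The regions described here are places on the genome where phosphorylated c-JUN (p-c-JUN) appeared in senescent fibroblasts on chromatin that already carried the histone mark H3K27ac in proliferating cells, and where the forkhead factor FOXF1 had no peak. They were chosen by measured peak calls. The p-c-JUN peaks of the 2 proliferating (Pro) and 2 senescent (Sen) libraries were joined wherever they overlapped by at least 1 bp, which gave 106528 regions on chromosomes 1 to 22 and X. Of these, 29856 (28.0%) were gained, with a p-c-JUN peak in both Sen libraries and in neither Pro library, against 327 lost in the opposite sense. A total of 8350 gained regions overlapped an H3K27Ac peak in both Pro libraries, and 4322 of those overlapped no FOXF1 peak in either Sen library. These 4322 members are 14.5% of the gained regions and 4.06% of all joined regions. Because the peak calls of p-c-JUN in Pro and Sen, of H3K27Ac in Pro and of FOXF1 in Sen defined them, those calls are given below as description only, with no test.

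c-JUN is a subunit of AP-1, a family of dimeric transcription factors made of JUN and FOS proteins that bind short palindromic DNA elements, and phosphorylation of its N-terminal part by stress kinases raises its activity. H3K27ac is deposited on the histones of active enhancers and promoters, largely by the acetyltransferases p300 and CBP, so a region that already carries it before a factor arrives is one that was already active. In fibroblasts driven into senescence by an oncogene, AP-1 is known as an organiser of the enhancers that change activity, while FOXF1 and FOXF2 are forkhead factors of the lung mesenchyme.

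All libraries came from 1 line, IMR-90 ER:Ras, fibroblasts of human fetal lung in which 4-hydroxytamoxifen (4OHT) switches on an oncogenic Ras fused to the estrogen receptor. Binding was measured by CUT&RUN, in which an antibody directs a nuclease to cut out the DNA it sits on, in 28 libraries with 14 for H3K27Ac, 8 for FOXF1 and 6 for p-c-JUN. Sen cells received control siRNA and 100 nM 4OHT for 6 days. In 3 other senescent groups the siRNAs were against FOXF1 and FOXF2 (siFOXF1/2), against JUN family members (JUN knockdown), or against p300 and CBP (sip300/CBP), the last with its own control libraries. Every group had 2 libraries except H3K27Ac in Sen, which had replicates 1 and 2 from a first deposit and replicates 3 and 4 from a second, the latter deposited with the JUN knockdown. The labels conflict in places: the samples titled Pro carry the same 4OHT treatment and senescent cell type tags as Sen, and the title of the JUN knockdown names cJUN and JUND, whereas JUNB is listed beside them under its treatment. Separate cultures are not stated for the replicates. The p-values therefore reflect only how much these libraries vary, and 2 libraries against 2 cannot give an exact permutation p below 0.333. How far each siRNA lowered its target is not analysed here, and p-c-JUN after JUN knockdown is not used here.

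Each file is a list of called peaks, so the measure throughout is whether a region overlaps a peak in a library. A missing peak can be weak signal as well as no signal, and lists differ in length. The p-c-JUN lists held 24808 and 32136 peaks in Pro against 70177 and 93443 in Sen. With the lists of each antibody cut to the strongest peaks so that they were equally long, 726 members were left, so the size of the set depends on list length. The 14 H3K27Ac lists ranged from 1549 to 89329 peaks, with 84864, 60862, 48859 and 26694 in Sen replicates 1 to 4.

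Other sets of p-c-JUN regions were used to show where the members differ. The first was the 6084 p-c-JUN regions held throughout, with a p-c-JUN peak in all 4 libraries and otherwise the same criteria as the members (H3K27Ac in both Pro lists, no FOXF1 in Sen). The second was the 4028 gained regions with H3K27Ac in both Pro lists that do carry FOXF1 in Sen, and the last was the 14010 gained regions with H3K27Ac in neither Pro list and no FOXF1. Carrying FOXF1 here means a peak in at least 1 FOXF1 Sen list. Of the 4028, 1302 had a peak in both lists and 2726 in 1 list, which was replicate 2 for 2577. The FOXF1 Sen lists held 13603 and 40537 peaks. FOXF1 sat on 48.2% of the gained acetylated regions and on 18.0% of the gained regions with no Pro H3K27Ac peak. Members were 477 bp wide at the median, against 617 bp for regions held throughout and 530 bp and 445 bp for the gained regions with FOXF1 and without Pro acetylation.

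The p-c-JUN peaks of the members were of moderate strength. A peak's strength is given as its percentile by −log10 q within its own list. At the median, members stood at percentile 37.0 in Sen replicate 1 and 51.0 in replicate 2. Regions held throughout stood at 73.3 and 78.9, the gained regions with FOXF1 at 43.2 and 58.8, and those without Pro acetylation at 40.2 and 49.6. The median fold enrichment over the local background at the summit, as the authors' peak caller gave it, was 5.23 and 5.90 for members in the 2 Sen lists, against list medians of 5.95 and 5.82. Solved from the authors' fold and −log10 p, the median member summit was covered by 12 and 13 fragments in Sen replicates 1 and 2, where the weakest called peaks had 5 and 4. The calls therefore rest on few fragments. The weakest member peaks had −log10 q of 1.31 and 1.33. Just outside the set lay 917 and 2306 regions that met every other criterion but had a p-c-JUN peak in Pro replicate 1 alone or Pro replicate 2 alone, where those Pro peaks had a median fold of 4.76 and 5.12.

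**Figure D1:**
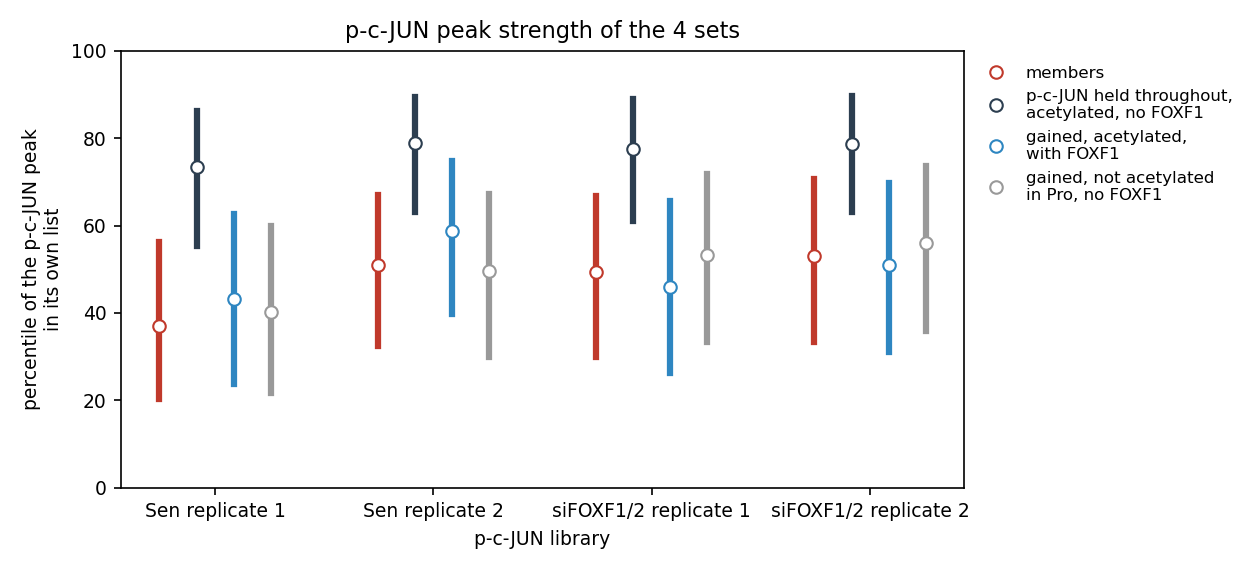
Percentile of each region's strongest p-c-JUN peak within its own list (vertical axis) in the 2 Sen and 2 siFOXF1/2 libraries, for the members and the 3 sets beside them; circles are medians and bars span the lower to upper quartile over regions with a peak. In Sen the members' medians of 37.0 and 51.0 lie far below the 73.3 and 78.9 of regions held throughout.

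In Pro, before p-c-JUN was called there, the members' H3K27Ac peaks were slightly above the middle of their lists, at median percentiles 54.5 and 57.1 in replicates 1 and 2. The regions held throughout had stronger H3K27Ac, at 71.7 and 72.1, and the gained regions with FOXF1 lay between, at 61.2 and 64.0. The median member summit in the Pro H3K27Ac lists was covered by 20 and 21 fragments. Called p-c-JUN summits lay close to H3K27Ac summits, which the choice of members largely sets. It requires overlap with a Pro H3K27Ac peak, and these had median widths of 614 and 611.5 bp. The p-c-JUN Sen summit fell inside the H3K27Ac peak in 83.9% of members in either Pro list. The nearest H3K27Ac summit lay 146 bp away at the median in both. Of H3K27Ac summits within 1 kb, 37.5% and 38.5% were within 100 bp of the p-c-JUN summit, and 50.7% and 48.7% were 100 to 400 bp away. For the regions held throughout, the median distances were 143 bp and 151 bp. The p-c-JUN summits themselves were placed with limited precision, with a median distance of 67 bp between Sen replicates 1 and 2.

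**Figure D2:**
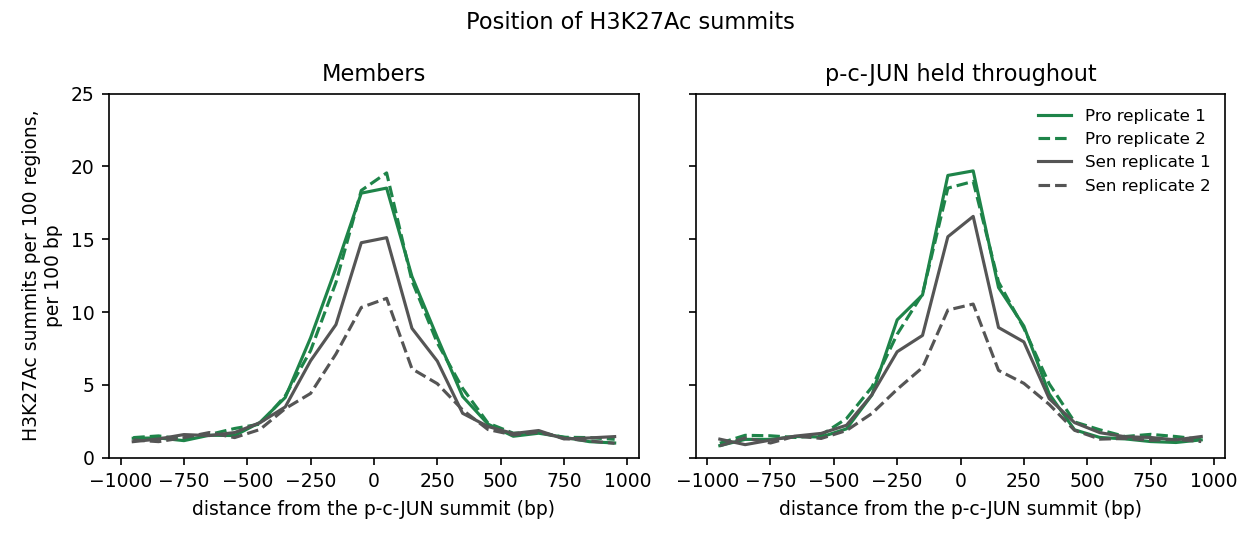
H3K27Ac summits per 100 regions in bins of 100 bp (vertical axis) by distance from the p-c-JUN summit (horizontal axis, bp), for members and for regions held throughout, in the Pro and first-deposit Sen libraries. Both sets show 1 central mode, which is lower in Sen than in Pro. The choice of both sets requires overlap with an H3K27Ac peak in Pro.

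Acetylated regions that held a member nearly all held 1. Joining the H3K27Ac peaks of both Pro lists gave 63441 acetylated regions, of which 4284 (6.75%) held a member, 12 of them held 2 members and none held more, in regions whose width leaves little room for several. Members were not restricted to broad acetylated domains. Those with a member were 771 bp wide at the median against 838 bp for those without, and the share with a member was 7.78% among the narrowest of 5 equal width groups and 6.10% among the widest. A p-c-JUN region of Pro was present in 4.86% of the acetylated regions that held a member and in 45.2% of the others, a contrast that the choice of members partly sets.

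Members were spread over the genome. Every chromosome counted had between 51 (chromosome 22) and 411 (chromosome 1) members. Per 100 acetylated regions the count ran from 5.32 on chromosome 22 to 8.29 on chromosome X, with a median of 6.92. The median gap between neighbouring members was 281315 bp, and 2.77% of gaps were 10 kb or less. The nearest p-c-JUN region with a Pro peak lay 12990.5 bp away at the median, against 19833.5 bp for the gained regions without Pro acetylation and 11679 bp for the regions held throughout. A FOXF1 Sen peak, absent from the member itself by rule, lay within 1 kb of 9.72% of members, 6.49% of regions held throughout and 4.08% of gained regions without Pro acetylation. Against regions held throughout the order was the opposite at longer distances, with 44.8% against 46.8% within 10 kb and median gaps of 11628.5 bp against 11102.5 bp. The tightest groups were 4 members within 15324 bp on chromosome 9 at 99238740 to 99254063, 4 within 30795 bp on chromosome 3 at 74662059 to 74692853, and 4 within 34167 bp on chromosome 1 at 25795517 to 25829683 (hg19). None of these 3 stretches held a gained region with FOXF1 or a p-c-JUN region held throughout.

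The first question independent of the rule is whether the members kept H3K27ac in senescence. An H3K27Ac peak was present at 79.5% of members in Sen replicate 1 (95% Wilson interval 78.2 to 80.6), 58.3% in replicate 2 (56.8 to 59.7), 44.8% in replicate 3 (43.4 to 46.3) and 25.8% in replicate 4 (24.5 to 27.1). The order of these shares is the order of the list lengths, and the Wilson intervals cover only the counting of regions. In replicates 1 and 2, 2340 members (54.1%) had a peak in both, 1094 in replicate 1 alone, 179 in replicate 2 alone and 709 (16.4%) in neither. Over all 4 Sen libraries, 773 members (17.9%) had a peak in each and 593 (13.7%) in none. The same shares over all acetylated regions are not given here, so these counts are not read as particular to the members. In replicates 3 and 4, whose lists are shorter, 50.4% of members had a peak in neither. That share was 46.7% of regions held throughout, 37.4% of gained regions with FOXF1 and 89.5% of gained regions without Pro acetylation. For scale, H3K27Ac peaks of Pro and Sen replicates 1 and 2 joined together gave 63086 regions with a peak in both Pro lists. Of these, 20.1% had no peak in either Sen replicate 1 or 2. Counted over the same H3K27Ac regions, the share was 14.7% of the 4301 that held a member. The members' 16.4%, counted over p-c-JUN regions, is not far from this background. Without Sen replicate 1, whose list is the longer, 1803 members had no peak. Among these acetylated regions, the share without Sen H3K27Ac was 15.4% of the 4055 that held a member and no p-c-JUN peak of Pro. It was 4.50% of the 3822 with a gained region that carried FOXF1 and no p-c-JUN peak of Pro. It was 10.3% of the 26879 with p-c-JUN already in Pro, and 38.9% of the 20034 with no p-c-JUN peak in Pro or Sen.

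Members carried H3K27ac in senescence less often than the gained regions with a FOXF1 peak in at least 1 Sen list. The latter had an H3K27Ac peak at 92.8%, 76.9%, 58.7% and 33.2% in Sen replicates 1 to 4. The difference, members minus that set, was −13.3 ± 4.60 percentage points (SD, n = 4), negative in 4 of 4 libraries, and the exact two-sided sign-flip test over libraries gave p = 0.125, the smallest that 4 libraries allow. The FOXF1 set also had stronger H3K27Ac in Pro. Within 5 groups by Pro H3K27Ac strength, cut at the members' quantiles, the mean differences were −12.4, −16.6, −10.8 and −4.77 points in the 4 libraries. Members were lower in 5 of 5 groups in each library. Against regions held throughout, members differed by −2.93 ± 2.84 points (SD, n = 4, exact sign-flip p = 0.25), lower in 3 of 4 libraries. Averaged over these 5 groups that difference was 1.92, 8.91, 3.02 and −0.15 points. The strongest group held 865 members and 2310 regions held throughout, so strength can still differ within groups. Gained regions without Pro acetylation had H3K27Ac at only 17.9%, 11.2%, 8.57% and 4.33%, which is 41.6 ± 16.9 points below the members (SD, n = 4). H3K27Ac calls in Pro separate these sets by choice, which favours such a gap, so it is given as description, with no test.

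**Figure D3:**
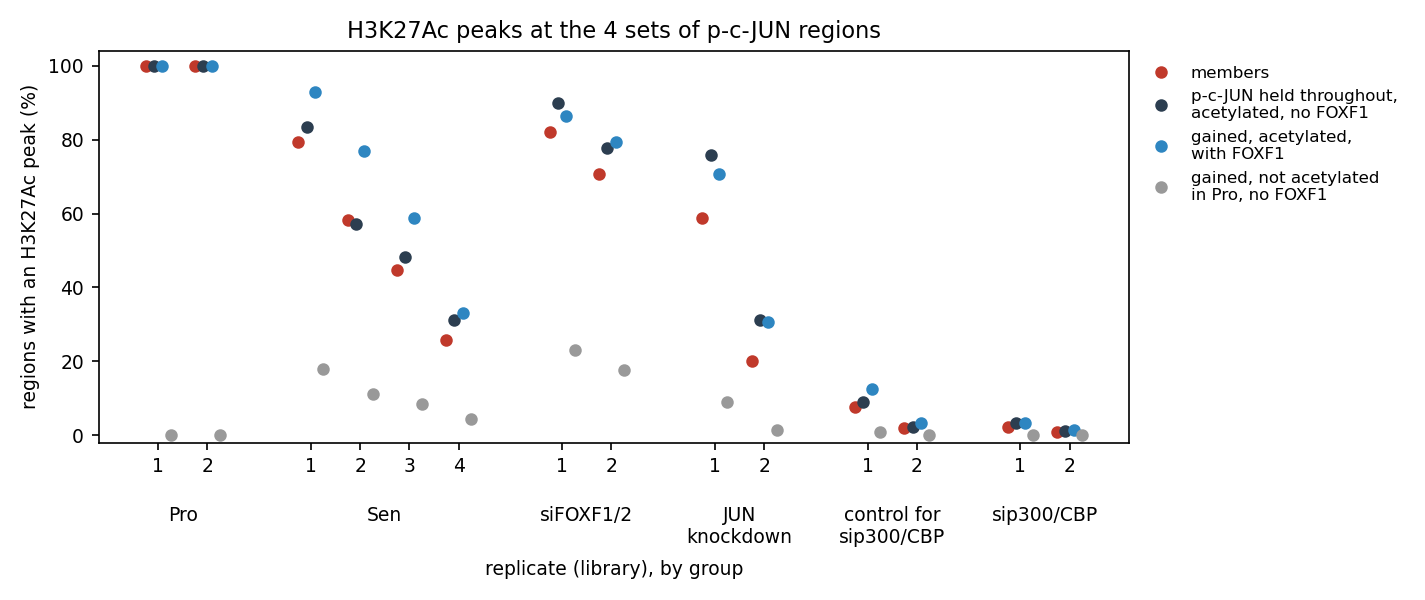
Percent of regions with an H3K27Ac peak (vertical axis) in each H3K27Ac library (horizontal axis, grouped by condition), for the members and the 3 sets beside them; each point is 1 library, and the Pro values are fixed by the choice of the sets. Members lie below the gained regions with FOXF1 in every Sen library, and below both acetylated sets in the first JUN knockdown library, at 58.9% against 75.7% and 70.7%.

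Pro strength sorted the members. In the weakest of 5 groups by Pro H3K27Ac strength, 63.4% and 42.4% had an H3K27Ac peak in Sen replicates 1 and 2, and in the strongest 94.6% and 77.2%. p-c-JUN strength sorted them less. From the weakest to the strongest of 5 groups by Sen p-c-JUN strength, the share with H3K27Ac went from 76.1% to 83.8% in Sen replicate 1 and from 56.2% to 63.9% in replicate 2. It was 46.4% and 46.6% in replicate 3, and 26.8% and 28.6% in replicate 4. The members with the strongest p-c-JUN had the weaker Pro H3K27Ac, with a median percentile of 36.6 (the lower of the 2 Pro lists) against 50.4 in the group with the weakest p-c-JUN.

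The siFOXF1/2 libraries ask whether members, which have no FOXF1 peak, lose H3K27ac when FOXF1 and FOXF2 are depleted. The share with a peak was not lower. H3K27Ac was present at 82.1% and 70.6% of members in the 2 siFOXF1/2 libraries, against 79.5% and 58.3% in Sen replicates 1 and 2. The difference of 7.47 ± 12.1 points (SE, n = 2 and 2) was smaller than its error, the groups overlapped, and the exact permutation test gave p = 0.667. Leaving out Sen replicate 2 turned it to −3.11 points, and leaving out replicate 1 gave 18.1 points. Of the 2340 members with H3K27Ac in both Sen libraries, 110 (4.70%, Wilson interval 3.92 to 5.64) had it in neither siFOXF1/2 library. Leaving out the first or the second siFOXF1/2 library gave 354 or 175 such members. Over all H3K27Ac regions of both Sen libraries, whether or not acetylated in Pro, 11.8% were lost in the same sense. Counted over these H3K27Ac regions, 3.82% of the 2516 that held a member were lost. The loss was 1.84% of the 19185 with p-c-JUN in Pro and 27.8% of the 10866 with no p-c-JUN peak in Pro or Sen. A share below 11.8% was therefore not particular to the members. Counted over p-c-JUN regions, the share was 5.05% of the gained regions with FOXF1, 1.33% of regions held throughout and 25.1% of the gained regions without Pro acetylation. In the other direction, of the 709 members with no H3K27Ac in Sen replicates 1 and 2, 201 (28.3%, Wilson interval 25.2 to 31.8) had a peak in both siFOXF1/2 libraries. Over all 12572 H3K27Ac regions of both Pro lists with no peak in these Sen libraries the share was 16.8%, but it was 35.7% of the regions held throughout and 34.7% of the gained regions with FOXF1, so a high share was not particular to the members.

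Relative to regions held throughout in the same library, the siFOXF1/2 comparison has the opposite sign. Members minus regions held throughout was −4.01 and 1.08 points in Sen replicates 1 and 2, and −7.81 and −7.04 points in the siFOXF1/2 libraries. The change was −5.96 ± 2.58 points (SE, n = 2 and 2), the groups did not overlap, and the exact permutation p of 0.333 was the smallest possible. The share of members and the share relative to this set therefore differ in sign, and neither can pass a threshold with 2 libraries a group.

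After JUN knockdown, H3K27Ac was missing from members about as often as from all H3K27Ac regions, and more often than from the other acetylated sets. The comparison uses Sen replicates 3 and 4, deposited with the knockdown. Of the 909 members with H3K27Ac in both of these, 140 (15.4%, Wilson interval 13.2 to 17.9) had no peak in either JUN knockdown library. Over all 19945 H3K27Ac regions of both Sen libraries the share was 13.0%, just below that interval, which covers only the counting of regions. Counted over H3K27Ac regions as the background is, 12.3% of the 1072 that held a member were lost. Among those without a p-c-JUN peak of Pro the share was 13.3% with a member and 10.6% with a gained region that carried FOXF1. Counted over p-c-JUN regions, it was 5.29% of regions held throughout (4.29 to 6.50), 10.1% of gained regions with FOXF1 (8.50 to 11.9) and 68.2% of gained regions without Pro acetylation (63.0 to 73.0). Over 5 groups by H3K27Ac strength in Sen replicates 3 and 4, members were higher than regions held throughout in 5 of 5 groups. The mean share over these groups was 15.4% of members against 5.76% of regions held throughout. It was 10.7% of gained regions with FOXF1, with members higher in 4 of 5 groups, and 65.7% of gained regions without Pro acetylation, with members higher in 0 of 5. Strength in Sen sorted the members here. Of members in the weakest group, 28.6% had no peak in either JUN knockdown library, against 6.04% in the strongest. The knockdown libraries differed greatly from each other: without the first, 524 of the 909 had no peak.

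**Figure D4:**
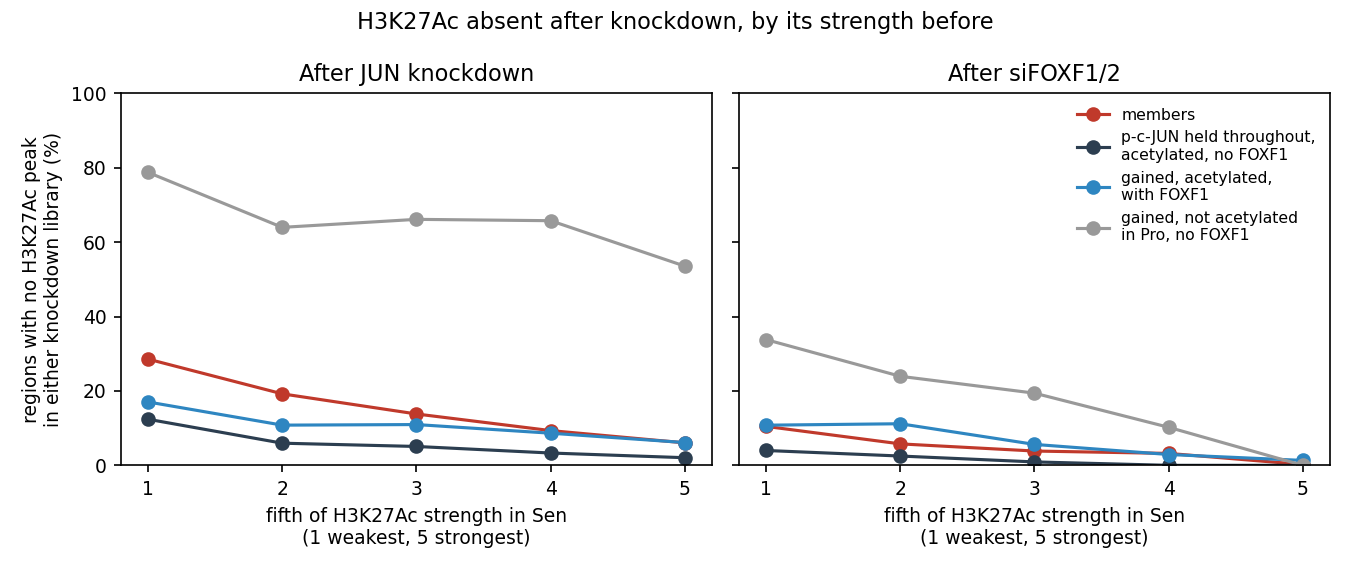
Percent of regions with no H3K27Ac peak in either knockdown library (vertical axis) among those with a peak in both Sen libraries of the same deposit, by 5 groups of H3K27Ac strength in Sen (horizontal axis; groups cut at the members' own quantiles), after JUN knockdown and after siFOXF1/2. After JUN knockdown members run from 28.6% to 6.04%, above regions held throughout in every group.

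The share of all members with H3K27Ac shows how unlike the knockdown libraries were. It was 58.9% and 20.2% after JUN knockdown, from lists of 74484 and 29606 peaks, against 44.8% and 25.8% in Sen replicates 3 and 4. The difference of 4.25 ± 21.6 points (SE, n = 2 and 2) was far smaller than its error (exact permutation p = 1). It was −15.1 points without the first knockdown library and 23.6 points without the second, and 13.8 points without Sen replicate 3 and −5.28 points without replicate 4. With the 4 lists cut to equal length it was −4.27 points (exact permutation p = 0.333). Members minus regions held throughout was −3.27 and −5.53 points in Sen replicates 3 and 4, and −16.8 and −11.0 points after JUN knockdown. That change was −9.51 ± 3.1 points (SE, n = 2 and 2) with no overlap between the groups (exact permutation p = 0.333, the smallest possible). It was −9.46 ± 2.78 points when averaged over 5 groups by Pro H3K27Ac strength.

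After JUN knockdown, members with stronger p-c-JUN in Sen had H3K27Ac less often than members with weaker p-c-JUN. In Sen replicates 3 and 4 the share of members with H3K27Ac hardly differed between the strongest and the weakest of the 5 groups by p-c-JUN, at 0.17 and 1.77 points. After JUN knockdown it was 54.0% in the group with the strongest p-c-JUN against 64.1% in the weakest in the first library, and 13.6% against 26.0% in the second. The strongest-minus-weakest difference was thus −10.1 and −12.3 points, a change of −12.2 points from Sen. The groups did not overlap, and the exact permutation p was 0.333, the smallest possible. This change kept its direction under all 17 alternatives tried, from −22.9 to −4.87 points. The smallest came with peaks of −log10 q of 5 or more. Most alternatives share members and libraries with the main result, and the replicate block gives the same value by construction. Their number is therefore no independent support. The measure was chosen after seeing the data, and its p-c-JUN strength comes from Sen lists that also chose the members. Comparing members above and below the median p-c-JUN strength within groups of equal Pro H3K27Ac strength gave −7.09 points. Leaving out a p-c-JUN Sen list was not tried, since both lists set the strength. Other sets changed in the same direction. The change was −11.0 points for regions held throughout and −15.2 points for gained regions with FOXF1, so it is not particular to the members. After siFOXF1/2 the members' change was −0.11 points (exact permutation p = 1).

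**Figure D5:**
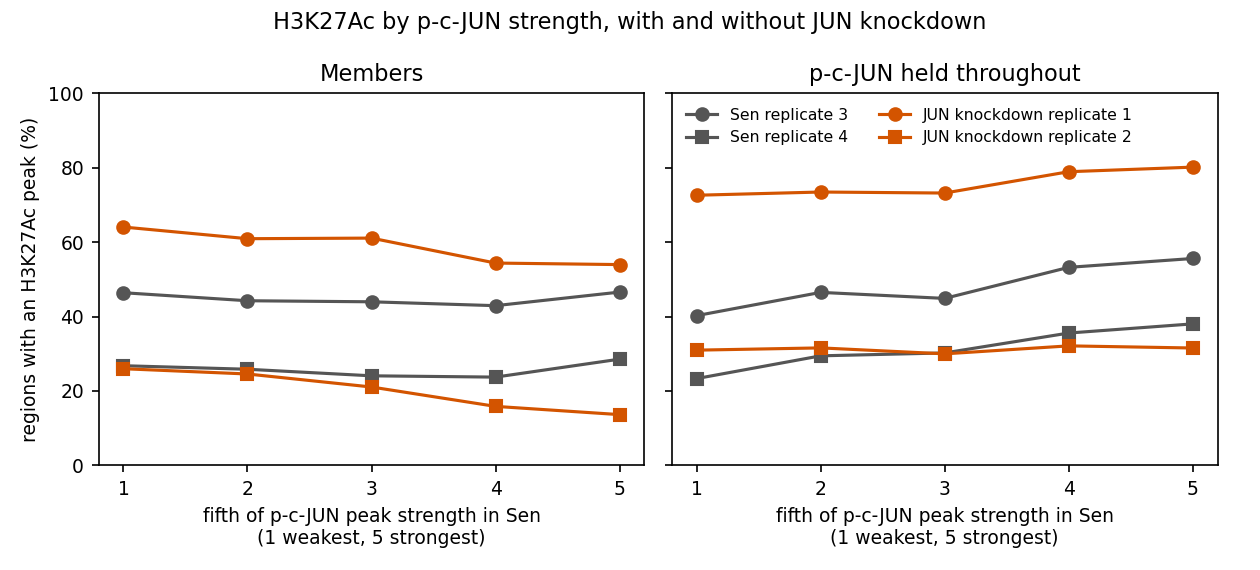
Percent of regions with an H3K27Ac peak (vertical axis) by 5 equal groups of p-c-JUN strength in Sen (horizontal axis, each set cut at its own quantiles), in Sen replicates 3 and 4 and the 2 JUN knockdown libraries; each line is 1 library. For members the Sen lines are nearly level and the knockdown lines decline, with strongest-minus-weakest differences of −10.1 and −12.3 points.

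Depletion of p300 and CBP, the main writers of this mark, was measured in 4 libraries with very short lists. H3K27Ac was present at 7.66% and 2.01% of members in the control libraries and at 2.31% and 1.04% after sip300/CBP. The difference of −3.16 ± 2.89 points (SE, n = 2 and 2) was close to its error, the groups overlapped and the exact permutation p was 0.667. With the 4 lists cut to equal length it was −0.65 points (exact permutation p = 0.333). Relative to regions held throughout it was 0.18 ± 0.69 points (SE, exact permutation p = 0.667). Averaged over 5 groups by Pro H3K27Ac strength, this relative difference was −0.76 ± 0.38 points (SE, exact permutation p = 0.333), so the sign turned. Only 29 members had a peak in both control libraries, and 21 of them (72.4%, Wilson interval 54.3 to 85.3) had none after sip300/CBP. The share was 66.2% of all 565 H3K27Ac regions of both controls. It was 77.6% of 49 regions held throughout, 76.9% of 52 gained regions with FOXF1, and 3 of 3 gained regions without Pro acetylation. The interval covers only the counting of regions, not variation between libraries. At these list lengths a change at the members could not be told from one everywhere else.

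p-c-JUN itself stayed at most members after siFOXF1/2. A p-c-JUN peak was present at 74.2% and 81.8% of members in the 2 siFOXF1/2 libraries, with 2942 members (68.1%) in both and 520 (12.0%, Wilson interval 11.1 to 13.0) in neither. Of all 59347 p-c-JUN regions of both Sen libraries, 8.70% were in neither. No test applies against Sen, where the choice of members sets the share at 100%. Choosing members without p-c-JUN Sen replicate 1 or replicate 2 raised the share in neither library to 30.9% or 18.8%, and leaving out the first or second siFOXF1/2 library gave 785 or 1115 members without a peak. Among the sets, p-c-JUN was absent from both siFOXF1/2 libraries at 0.62% of regions held throughout, 15.3% of gained regions with FOXF1 and 15.7% of gained regions without Pro acetylation. Members kept p-c-JUN more often than gained regions with FOXF1 in 2 of 2 libraries, by 7.37 and 2.29 points. Averaged over 5 groups by p-c-JUN strength these differences were 11.7 and 5.49 points, with members higher in 5 of 5 groups in each library. Against gained regions without Pro acetylation they were 5.29 and 5.08 points, likewise in 5 of 5 groups. With 2 libraries the exact sign-flip p cannot be below 0.5. Retention was higher at stronger peaks, from 52.9% and 63.7% in the weakest of 5 groups of members to 93.3% and 96.6% in the strongest. By H3K27ac in Sen it differed little: p-c-JUN was absent from both libraries at 12.5% of members with H3K27Ac in Sen replicates 1 and 2 and at 10.9% of those with it in neither.

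FOXF1 peaks were rare at the members in the other conditions too, which the choice of regions without a FOXF1 Sen peak favours. A FOXF1 peak was present at 10 and 85 of the 4322 members in Pro replicates 1 and 2 (0.23% and 1.97%), at 0 in either siFOXF1/2 library, which allows a share of up to 0.0694% by counting alone, and at 1 and 11 in the JUN knockdown libraries. The gained regions with FOXF1 in Sen had a FOXF1 peak in Pro at 4.62% and 17.1%, and the regions held throughout at 1.64% and 8.74%. These sets were also chosen by FOXF1 in Sen, and the share over all p-c-JUN regions is not given here. The Pro lists held 3441 and 11061 FOXF1 peaks. The knockdown lists held 186 and 133 FOXF1 peaks after siFOXF1/2 and 378 and 883 after JUN knockdown, which limits what could be seen there.

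Single members show how these patterns combine. They were ranked by the worse of their ranks among the p-c-JUN peaks of the 2 Sen lists. Among the 10 leading members, all 10 had p-c-JUN in both siFOXF1/2 libraries, 3 had H3K27Ac in all 4 Sen libraries, and 2 had it in both JUN knockdown libraries. The first, on chromosome 8, had p-c-JUN folds of 14.0 and 13.6 in Sen and 14.3 and 12.5 after siFOXF1/2. Its H3K27Ac folds were low, at 2.51 and 2.18 in Pro and 2.10 and 2.41 in Sen replicates 1 and 2. The next, chr2:219434533-219435271 (hg19), had p-c-JUN folds of 16.8 and 14.7 in Sen and 15.9 and 18.7 after siFOXF1/2. Its H3K27Ac peak was present in both Pro lists (3.82 and 4.81), in all 4 Sen lists (5.16, 4.30, 5.00 and 4.14) and in both siFOXF1/2 lists (4.59 and 4.57), but in only the first JUN knockdown list (4.22).

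The strongly bound member chr11:9191307-9192216 had H3K27Ac peaks in Sen and no called H3K27Ac peak after JUN knockdown. Its p-c-JUN folds were 13.5 and 13.3 in Sen and 8.16 and 8.10 after siFOXF1/2. H3K27Ac folds were 4.62 and 4.34 in Pro, 4.72, 5.30, 4.16 and 2.97 in the 4 Sen libraries and 3.74 and 3.62 after siFOXF1/2, with no peak in either JUN knockdown library. The peak in Sen replicate 4 was weak, at rank 24153 of 26694, and a missing call can be weak signal. The member chr9:101801868-101802558 had the same pattern of H3K27Ac calls in Sen and JUN knockdown, with Sen folds of 4.22, 3.85, 4.37 and 4.59 and no peak in either knockdown library. A different member, chr10:25357190-25357660, kept H3K27Ac after JUN knockdown at folds of 5.46 and 5.55, although its p-c-JUN folds in Sen were 13.6 and 18.9. The member chr10:92138468-92138755 had H3K27Ac in Pro (4.93 and 4.74) and in none of the 4 Sen libraries, while p-c-JUN had folds of 13.2 and 14.0 in Sen and 6.55 and 6.52 after siFOXF1/2.

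The members with the strongest Sen H3K27Ac ranged in p-c-JUN fold from 3.66 to 10.3 in Sen replicate 1. Of the 5 leading by H3K27Ac rank in Sen replicates 1 and 2, all 5 kept H3K27Ac in both siFOXF1/2 libraries, 3 in both JUN knockdown libraries and 2 had p-c-JUN in both siFOXF1/2 libraries. The first, chr17:41466697-41467065, ranked 7 in both Sen H3K27Ac lists, with folds of 13.9 and 13.7 in Pro, 11.4, 10.0, 11.7 and 13.0 in the 4 Sen libraries and 16.1 and 12.6 after JUN knockdown. Its p-c-JUN folds were 3.96 and 4.60, at ranks 62144 of 70177 and 61861 of 93443. Regions prone to artefact signal were not filtered out here, and whether this is one was not tested. The third, chr1:184760537-184760955, had H3K27Ac folds of 4.70, 4.92, 5.00 and 5.15 in the 4 Sen libraries and 4.64 and 4.16 after siFOXF1/2, and no peak in either JUN knockdown library.

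Other members had strong H3K27Ac in Pro and none in Sen. The 5 with no peak in Sen replicates 1 and 2 and the highest Pro H3K27Ac ranks had none in replicates 3 or 4 either. The member chr17:41393445-41393730, with Pro folds of 9.74 and 10.9, had no H3K27Ac peak in any Sen, siFOXF1/2 or JUN knockdown library and no p-c-JUN peak after siFOXF1/2. Its p-c-JUN peaks in Sen were weak, with folds of 3.63 and 3.58 at ranks 67385 of 70177 and 84039 of 93443. Whether this region is prone to artefact signal was not tested either. The member chr2:208370441-208370957 had Pro H3K27Ac folds of 5.17 and 5.37, no Sen peak, and peaks of 6.00 and 4.37 in both siFOXF1/2 libraries. Its p-c-JUN folds were 5.73 and 5.54 in Sen and 4.36 and 5.87 after siFOXF1/2. These single regions illustrate the calls and carry no test. Genes, promoters and sequence motifs at the members are not analysed here, since the annotation used here has another genome build than the files.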

How the data were processed

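The 28 deposited files were narrowPeak lists, 1 per library. Bowtie2 2.3.4.1, SAMtools 1.9, deepTools 3.1.1, MACS2 3.0.0 and build hg19 are named per the submitters' processing notes. Parameters, control libraries, read depth and any use of the yeast spike-in are not given in the sources used here. Each deposited peak carried a display score, a fold enrichment (a linear ratio) at its summit, and −log10 p and −log10 q from the peak caller of the authors, beside a summit offset deposited by the authors. Peak strengths were ranked within a list only. Folds of single regions from different lists are set side by side as description, and differences between them were not tested.

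Peaks outside chromosomes 1 to 22 and X, 475 of 1123812 (0.0423%), were left out. No filter for regions prone to artefact signal was applied here. Groups came from sample titles. Joining, overlap and tests were run in Python 3.11.15 with numpy 2.4.6, pandas 2.3.3 and scipy 1.17.1, and were tested on simulated lists. A library held a region when a peak overlapped it by at least 1 bp, and background shares were computed the same way over all regions. Group means were compared by exact two-sided permutation tests over libraries, and sets within libraries by exact sign-flip tests. Summit fragments were solved from the deposited fold and −log10 p where that p was under 60, matching a whole number for 100% of peaks in the lists used. Strength groups were cut at quantiles of the weaker percentile in the 2 lists. Where sets were compared within strength groups, the cuts were the members' own quantiles. Strength can still differ inside a group, so groups called equal in strength are only approximately so.

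Named regions were the 10 leading by p-c-JUN rank, the 5 leading by Sen H3K27Ac rank, the 5 leading by Pro H3K27Ac rank with no peak in Sen replicates 1 and 2, and the 5 leading stretches of up to 50 kb, of which the text gives a part. Members, sets and tests were chosen with earlier results of these data known. The alternatives were a −log10 q of 5, an overlap of 50%, equal list lengths, other FOXF1 and H3K27ac criteria, another reference, a replicate block and leaving out libraries. The analyses by p-c-JUN strength and by H3K27Ac strength before knockdown were chosen after seeing the data. Gene starts, AP-1 motifs and gene lists were not used here, because the annotation used here is of another build.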

Additional observations from a re-analysis of the deposited data

How the results depend on the processing

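The number of members was 4322 and depended on the criteria. It was 2734 with a −log10 q of 5 or more, 726 with lists of equal length and 7048 when only FOXF1 peaks shared by both Sen lists were barred, and it ran from 4471 to 8693 when 1 library was left out of the choice of members. Lists of equal length were cut to the shortest list used by each result, so they left 726 members where only p-c-JUN lists and the lists that choose members count, 453 with the Sen and siFOXF1/2 H3K27Ac lists, 117 with those of the JUN knockdown comparison and none with those of sip300/CBP. Without H3K27ac in Sen replicates 1 and 2 there were 709, against 48 with equal lists, 461 with the p-c-JUN summit inside a Pro peak and 2178 in replicates 3 and 4, and from 715 to 1803 with 1 library left out. Lost after siFOXF1/2 were 110, against 52 at the stricter −log10 q, 10 with equal lists, 199 under the looser FOXF1 criterion and 554 over all members, and from 115 to 354 with 1 library left out. Lost after JUN knockdown were 140, against 57, 14 and 234 under the first 3 of these, and from 143 to 524 with 1 library left out; with equal lists the share went from 15.4% to 32.6%. p-c-JUN was in neither siFOXF1/2 library at 520, against 303, 180 and 892 in the same order, and from 543 to 2690 with 1 library left out; with equal lists the share went from 12.0% to 24.8%.

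The change after siFOXF1/2 (7.47 points) was −5.96 relative to regions held throughout and −7.29 when this was done within groups of equal Pro strength, 24.2 against all 4 Sen libraries, and from −3.11 to 18.1 with 1 library left out. That after JUN knockdown (4.25 points) was −9.51 and −9.46 in these terms, −13.7 with lists of equal length and −4.27 with only the measured lists equal, and from −15.1 to 23.6 with 1 library left out. That after sip300/CBP (−3.16 points) was 0.18 relative to regions held throughout, −0.76 when this was done within groups of equal Pro strength, −0.65 with the measured lists equal, and from −5.98 to −0.34 with 1 library left out. The relative values within groups of equal Pro strength, all alternatives for the loss after JUN knockdown, and leaving out measured libraries for the counts were chosen after seeing the data. Shares within 1 kb of a gene start and with an AP-1 motif were not run.

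With the replicate number as a replicate block the changes are the same 7.47, 4.25 and −3.16 points, and the exact sign-flip test gave p = 0.5, 1 and 0.5, where 0.5 is the smallest possible. The labels state no pairing, and differences between replicates correlated by 0.02 to 0.05 over members between the groups compared. Depth limits every absence: the peak lists give no read totals, and member summits rest on few fragments.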
